A study of Homo sapiens with 8 samples.

Results

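The genes described here are 32 genes of B cell receptor signalling, from the receptor chains CD79A and CD79B to the NFAT factors, and the measurement is the FLI1 ChIP-Seq signal at their promoters. The 32 genes were chosen as members of the pathway, with earlier results of these data known, by a rule that uses no binding value, and are 32 of the 20136 protein coding genes of the annotation used. For each gene, the best peak was the listed peak with the highest -log10 q whose centre lay within 3 kb of any annotated transcription start site (TSS) of that gene, and the gene was called bound when this -log10 q was at least 3, which is a q-value of 0.001 or lower. The q-value is the p-value of a peak corrected for the number of places tested.

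The chromatin came from 2 established cell lines, OCI-Ly1 and VAL, both derived from the germinal centre B cell (GCB) type of diffuse large B cell lymphoma (DLBCL). Each line was grown with no treatment named in the descriptions and gave 2 replicates of FLI1 ChIP-Seq, 4 libraries in all, and the matching 4 input DNA samples were not analysed here. Chromatin was precipitated with a rabbit polyclonal antibody against FLI1, and parallel precipitations were pooled for each library. A cell line comes from the tumour of 1 patient and has adapted to culture, and nothing in the descriptions says that the replicates of a line came from separate cultures.

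The B cell receptor is a membrane immunoglobulin held together with CD79A and CD79B, whose tails are phosphorylated when antigen binds. The kinases LYN, SYK and BTK then act through adaptors such as BLNK to switch on the lipase PLCG2 and the lipid kinase PI3K, from which protein kinase C beta, the NF-kB factors and the NFAT factors are activated. Phosphatases such as PTPN6 (SHP-1) and INPP5D (SHIP1) hold the signal down, and DLBCL cells depend on this pathway to differing degrees. FLI1 is a transcription factor of the ETS family, which bind DNA at a GGAA core, and it is expressed in blood cells including B cells.

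The libraries were of unequal strength. The number of peaks past the threshold of 3 was 5354 for OCI-Ly1 replicate 2, 973 for VAL replicate 1 and 6474 for VAL replicate 2, and a passing peak had at least 6, 8 and 6 inferred reads at its summit. OCI-Ly1 replicate 1 listed only 37 intervals, 33 of them longer than 1 Mb, and was not used in the counts; its 1 passing interval covered nearly all of chromosome 2, INPP5D included. From here on, OCI-Ly1 stands for replicate 2 of that line, the only usable one, so that a difference between OCI-Ly1 and VAL cannot be told apart from a difference between 2 libraries. No test across conditions was possible, and the values are descriptions of these libraries.

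In VAL replicate 2, 18 of the 32 genes (56.2%, Wilson 95% interval 39.3 to 71.8) had a bound promoter, against 20.8% of the other 20104 protein coding genes. In OCI-Ly1, 7 genes were bound (21.9%, interval 11 to 38.8), close to the 19.0% of other genes. In VAL replicate 1, PTPN6 alone was bound (3.12%, interval 0.554 to 15.7), and the share of other genes was 3.14%. The intervals cover counting error only, and genes are not replicates.

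Bound in OCI-Ly1 and in at least 1 VAL library were 6 genes, namely CD79A, LYN, PIK3CD, VAV2, CD72 and PTPN6 (18.8%, against 12.6% of other genes). A further 12 genes were bound in VAL replicate 2 and not in OCI-Ly1 (37.5%, against 8.29%), namely CD79B, CD81, SYK, BTK, CSK, PIK3AP1, BANK1, SH3BP2, PLCG2, PRKCB, INPP5D and NFATC1. BCL10 was the only gene bound in OCI-Ly1 and not in VAL replicate 2 (3.12%, against 6.47%). Altogether 19 of the 32 genes were bound in at least 1 library (59.4%, against 27.4%), and 13 were bound in none. These counts rest on VAL replicate 2: without it, 7 genes were bound in at least 1 library (21.9%, against 19.3%) and 1 in both lines (3.12%, against 2.82%).

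**Figure D1:**
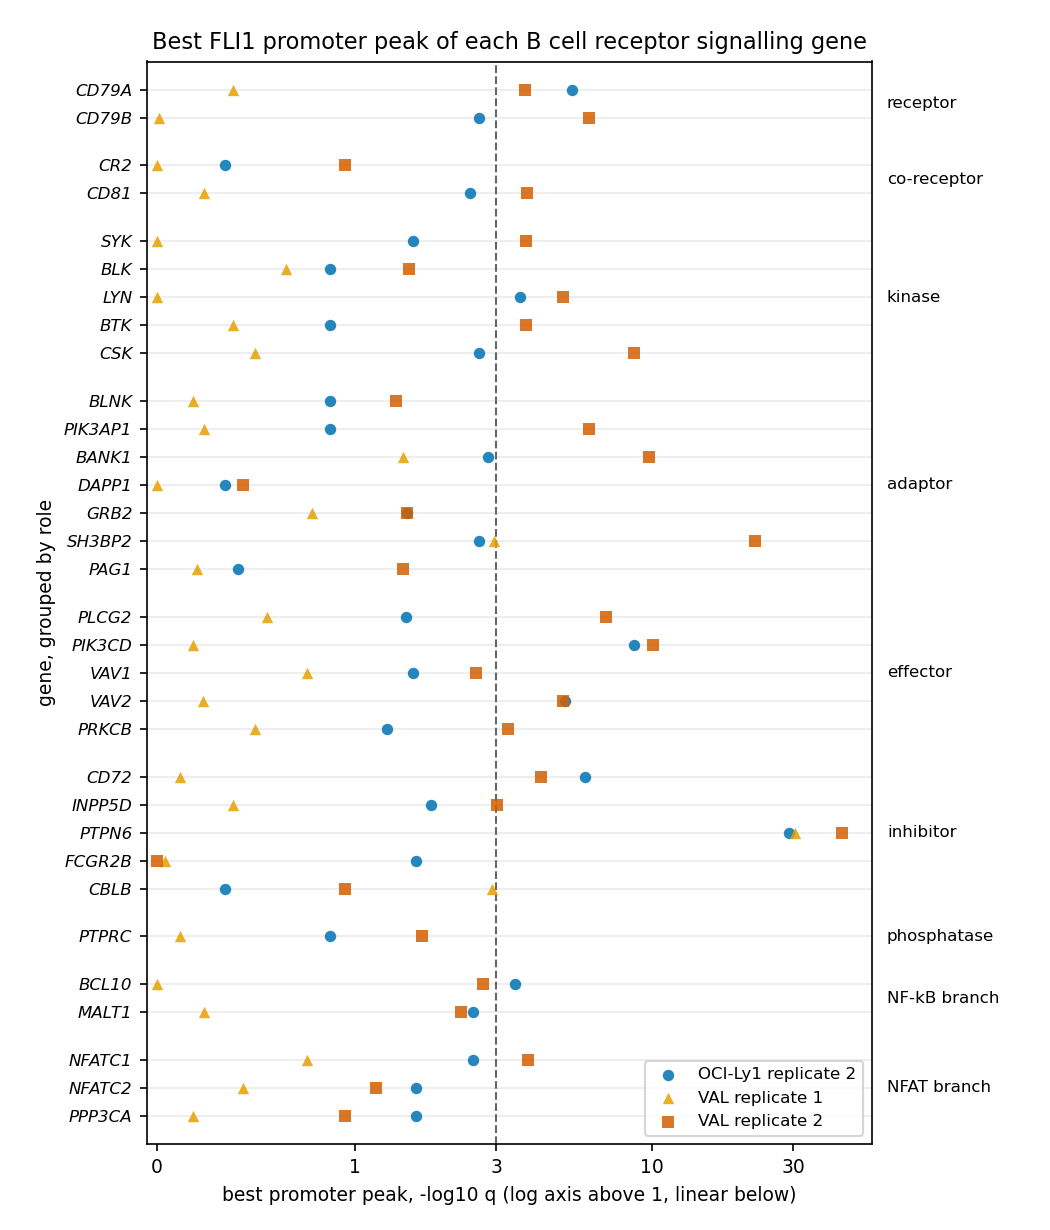
Best FLI1 promoter peak of each of the 32 genes, as -log10 q on the horizontal axis (log scale above 1, linear below), with genes on the vertical axis grouped by role, 1 point per library and the dashed line at 3. A gene with no listed peak is drawn at 0. The VAL replicate 2 points lie right of the line for 18 genes, the OCI-Ly1 replicate 2 points for 7 and the VAL replicate 1 point for PTPN6 only.

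The DNA under the summits is shown because few of these summits held the motif found at many other bound promoters. The 30-base windows below are from GRCh37 and were read 5′ to 3′ on the strand of the motif, and capitals mark the motif nearest to the summit. At PTPN6 and CD81 the capitals are the ETS motif CCGGAA followed by A or G. At the other 8 genes they are AGGAAGT, which also holds the GGAA core of ETS sites but cannot lie on the same copy of it. The name ETS motif stands here for CCGGAA followed by A or G only. A summit without it can still hold another ETS site. These are all the promoters of the list with AGGAAGT at the best summit of VAL replicate 2.
PTPN6, chr12:7053148-7053177, minus strand: atccggcgcagCCGGAAGcgcccaggcgtg
CD81, chr11:2407978-2408007, minus strand: gggagggacagCCGGAAAtgggggtgacgc
CD79A, chr19:42381282-42381311, plus strand: ggggggctgggcAGGAAGTagggtggggtt
CD79B, chr17:62008746-62008775, plus strand: ctgctgggtgggAGGAAGTgggcggggcca
SYK, chr9:93564008-93564037, plus strand: cgcgacactgggAGGAAGTgcgggccgcct
BTK, chrX:100645937-100645966, plus strand: ccgactcccatgAGGAAGTgcgatcgggaa
BANK1, chr4:102711807-102711836, minus strand: ctgggcgcccagAGGAAGTgaaactgctca
SH3BP2, chr4:2813962-2813991, plus strand: ggagcagggaacAGGAAGTcccgggtgggg
PLCG2, chr16:81855246-81855275, plus strand: catttaagcctcAGGAAGTggcctctgtag
INPP5D, chr2:233924978-233925007, plus strand: gtttctgtaatgAGGAAGTtctccgcagct
The nearest AGGAAGT was 1 bp from the summit at BTK, 3 bp at SH3BP2, 7 bp at CD79B and 8 bp at BANK1, and 37 bp at CD79A and 36 bp at PLCG2.

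The ETS motif CCGGAA followed by A or G, sought on both strands within 50 bp of the summit, was present at 2 of the 18 best summits of the bound genes in VAL replicate 2 (11.1%) and at 44.1% of 3362 best summits of other bound genes. In OCI-Ly1 it was present at 1 of 7 summits, that of PTPN6 (14.3%), against 50.5% of 3049. In windows of the same length 250 bp to either side of the other genes' summits, the share was 3.39% in VAL replicate 2 and 3.95% in OCI-Ly1, and windows centred on the TSS of protein coding transcripts held it in 7.96% of 78564 cases. The shares of the signalling genes rest on counts of 2 and 1, and no test of the difference was made.

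AGGAAGT was sought after the sequences had been seen, so its counts describe these summits and support nothing further. It was present at 8 of 18 summits in VAL replicate 2 (44.4%), against 7.58% of the 3362 summits of other bound genes, and at 3 of 7 in OCI-Ly1 (42.9%; LYN, PIK3CD and VAV2), against 7.02%. None of the windows 250 bp to either side held it in the signalling genes (0 of 36 in VAL replicate 2 and 0 of 14 in OCI-Ly1), and 1.87% and 1.74% of those of other genes did. Among all TSS windows the share was 3.01%. The shorter core GGAA, which both motifs contain, was present at 17 of 18 summits in VAL replicate 2 and 7 of 7 in OCI-Ly1, but also in 83.3% and 57.1% of the windows to either side.

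The same was read by where the genes were bound, with the same limit that AGGAAGT was chosen after these sequences had been seen. Of the 12 genes bound in VAL replicate 2 and not in OCI-Ly1, 7 had AGGAAGT at the summit (58.3%) and 1 the ETS motif, while 1420 summits of other genes of this class had AGGAAGT in 7.82% and the ETS motif in 25.3%. Of the 6 genes bound in both, 1 had AGGAAGT in VAL replicate 2 (CD79A) and 1 the ETS motif (PTPN6). The corresponding 1959 summits of other genes had them in 7.40% and 57.7%. A match of letters is not evidence of which protein was bound there, and which factor reads AGGAAGT at these sites was not tested.

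The receptor chains themselves were both bound in VAL replicate 2, where 20.8% of other protein coding genes were. The counts by role given from here on rest on few genes each. CD79A, the signalling chain Ig-alpha, had a -log10 q of 5.39 in OCI-Ly1, while VAL replicate 1 gave 0.382 and VAL replicate 2 gave 3.74. Its best OCI-Ly1 peak lay 1706 bp upstream of the TSS and its VAL peak 89 bp upstream, but a second OCI-Ly1 peak (-log10 q 3.99, 7 reads, summit at chr19:42381200) overlapped the VAL peak (7 reads, summit at chr19:42381260). CD79B, the partner chain Ig-beta, gave 2.62, 0.012 and 6.15 in this order of libraries, which is kept for all values given as a series of 3. The CD79B summit of VAL replicate 2 was 55 bp inside the nearest TSS of CD79B and 9 bp from a TSS of an overlapping coding gene, ENSG00000285947, so the peak cannot be given to one of them.

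Of the co-receptor genes, CD81, a tetraspanin of the B cell co-receptor, was bound in VAL replicate 2. Its values were 2.44, 0.238 and 3.79, with 7 reads at an intronic summit 670 bp from a TSS. CR2, the complement receptor CD21, had 0.344, 0 and 0.952 and was far below the threshold in every library.

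Of the 5 kinase genes, 4 were bound in VAL replicate 2, and LYN also in OCI-Ly1. LYN, a Src family kinase at the top of the cascade, had values of 3.59, 0 and 5.02, with overlapping peaks in both lines. SYK, which docks on the phosphorylated receptor tails, had 1.57, 0 and 3.76, and the summit of VAL replicate 2 with its 6 reads stood 31 bp upstream of the TSS. BTK, the kinase that phosphorylates PLCG2 and is the target of ibrutinib, had 0.873, 0.382 and 3.76. The BTK summit was 169 bp upstream of BTK and 24 bp from a TSS of RPL36A, a ribosomal protein gene transcribed the other way from the same region. That peak can be given to neither gene alone. CSK, which puts the inhibitory phosphate on Src family kinases, reached 8.75 in VAL replicate 2, with 2.62 in OCI-Ly1 and 0.495 in VAL replicate 1. The CSK summits, in the usual order of libraries, lay at chr15:75081391, chr15:75081395 and chr15:75081333. The last was 448 bp from a CSK TSS and 235 bp from a TSS of the microRNA gene MIR4513. BLK, another Src family kinase of B cells, was not bound at its promoter (0.873, 0.653 and 1.52).

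Of the 7 adaptor genes, 3 were bound, each in VAL replicate 2 only. SH3BP2, an adaptor that binds SYK and PLCG2, had -log10 q values of 2.62, 2.94 and 22.4, which put it second to PTPN6 in both VAL libraries but not in OCI-Ly1, where 8 of the genes were higher. All libraries placed the SH3BP2 summit at nearly the same position, at chr4:2813966 with 5 reads in OCI-Ly1, chr4:2813964 with 13 reads in VAL replicate 1 and chr4:2813980 with 22 reads in VAL replicate 2, in an intron 37 to 53 bp from a TSS. The gene was therefore just under the threshold in both libraries where it was not called. BANK1, a scaffold named for its part in B cells, had 2.81, 1.45 and 9.80, with summits 62, 37 and 49 bp from a TSS. PIK3AP1 (BCAP), which brings PI3K to the membrane, had 0.873, 0.238 and 6.15. The central adaptor BLNK (0.873, 0.183 and 1.38), GRB2 (1.497, 0.782 and 1.502) and PAG1, which anchors CSK at the membrane (0.410, 0.201 and 1.45), were not bound. DAPP1, an adaptor downstream of PI3K, had 0.344 in OCI-Ly1 and 0.435 in VAL replicate 2, with no listed peak in VAL replicate 1.

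Of the 5 effector genes, 4 were bound in VAL replicate 2. PIK3CD, the catalytic subunit PI3K delta, was bound in both lines with 8.68, 0.183 and 10.1. The best peaks of PIK3CD in the lines lay 65284 bp apart at different TSS, yet each of the 3 passing promoter peaks of OCI-Ly1 (summits at chr1:9687161, chr1:9712612 and chr1:9777860) had a passing peak of VAL replicate 2 over it (summits at chr1:9687193, chr1:9712576 and chr1:9777855). VAV2, a guanine nucleotide exchange factor, had 5.10, 0.234 and 5.02. PLCG2, the phospholipase that makes the messengers for calcium and protein kinase C, had 1.49, 0.556 and 7.005, and PRKCB, protein kinase C beta, had 1.29, 0.495 and 3.27.

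VAV1, the blood cell relative of VAV2, was the effector without a bound promoter (1.57, 0.757 and 2.56), but it held one of the strongest sites of the list inside its gene. This intronic site, 14749 to 14792 bp from the nearest VAV1 TSS, passed in all 3 libraries, with -log10 q values of 22.6, 3.03 and 27.7 and 24, 15 and 22 reads. Its summits fell at chr19:6801691, chr19:6801655 and chr19:6801698. In contrast to most promoters of the list, the intron site holds the ETS motif, and it does so 2 times within 50 bp of the summit.
VAV1, chr19:6801674-6801703, minus strand: cagggagccggCCGGAAAccggaaatgcct
The capitals mark the copy nearest to the summit of OCI-Ly1, and the second copy follows it in lower case.

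Of the 5 inhibitor genes, 3 were bound in VAL replicate 2 and 2 of these in OCI-Ly1 too, while FCGR2B and CBLB were bound in no library. PTPN6, the phosphatase SHP-1, was the only gene with a bound promoter in all 3 libraries, with 29.1, 30.4 and 43.6 and 25, 48 and 35 inferred reads. The 3 PTPN6 summits lay within 13 bp of each other. They were 2439 to 2452 bp upstream of the nearest PTPN6 TSS and 3 to 7 bp from a TSS of the neighbouring coding gene C12orf57, so the peak can be given to neither gene alone. PTPN6 also had weaker passing peaks at its own further TSS, of which that at chr12:7068425 (-log10 q 5.49, 8 reads) in OCI-Ly1 overlapped one at chr12:7068447 (7.76, 13 reads) in VAL replicate 2.

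CD72, an inhibitory receptor that recruits SHP-1, had 5.97, 0.118 and 4.23, with peaks 1882 bp apart that did not overlap between the lines. INPP5D, the lipid phosphatase SHIP1, had 1.80, 0.382 and 3.003, the last just inside the threshold. FCGR2B, the inhibitory Fc receptor, had 1.61 and 0.040 in OCI-Ly1 and VAL replicate 1 and no listed peak in VAL replicate 2. FCGR2B lies in a duplicated block of Fc receptor genes, and the authors removed reads that map to more than 1 place, so its values are uncertain. CBLB, a ubiquitin ligase, reached 2.89 in VAL replicate 1 and stayed at 0.344 and 0.952 in the others. PTPRC, the phosphatase CD45 that activates Src family kinases, was not bound (0.873, 0.117 and 1.69).

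On the NF-kB branch, BCL10 was bound in OCI-Ly1 (3.46) with a summit 2 bp from its TSS, had no listed peak in VAL replicate 1 and stood just under the threshold in VAL replicate 2 (2.70, summit 60 bp from the TSS). MALT1, the protease that acts with BCL10, gave 2.50, 0.238 and 2.27. The summits of MALT1 in OCI-Ly1 and VAL replicate 2 were each 9 bp from its TSS. So both genes had listed peaks at their start sites in the stronger libraries, close to the threshold on either side.

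On the NFAT branch, NFATC1, a factor that calcium signals send to the nucleus, was bound in VAL replicate 2 (2.50, 0.757 and 3.84). NFATC2 (1.61, 0.435 and 1.17) and PPP3CA, a catalytic subunit of calcineurin (1.61, 0.183 and 0.952), were not. NFATC1 resembled VAV1 in holding an intronic site that passed in all 3 libraries, at chr18:77226791, chr18:77226833 and chr18:77226802, with -log10 q values of 4.92, 6.55 and 20.4 and 10, 29 and 23 reads. It lay 15712 to 15754 bp from the nearest NFATC1 TSS. Neither the ETS motif nor AGGAAGT was found within 50 bp of these summits.

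**Figure D2:**
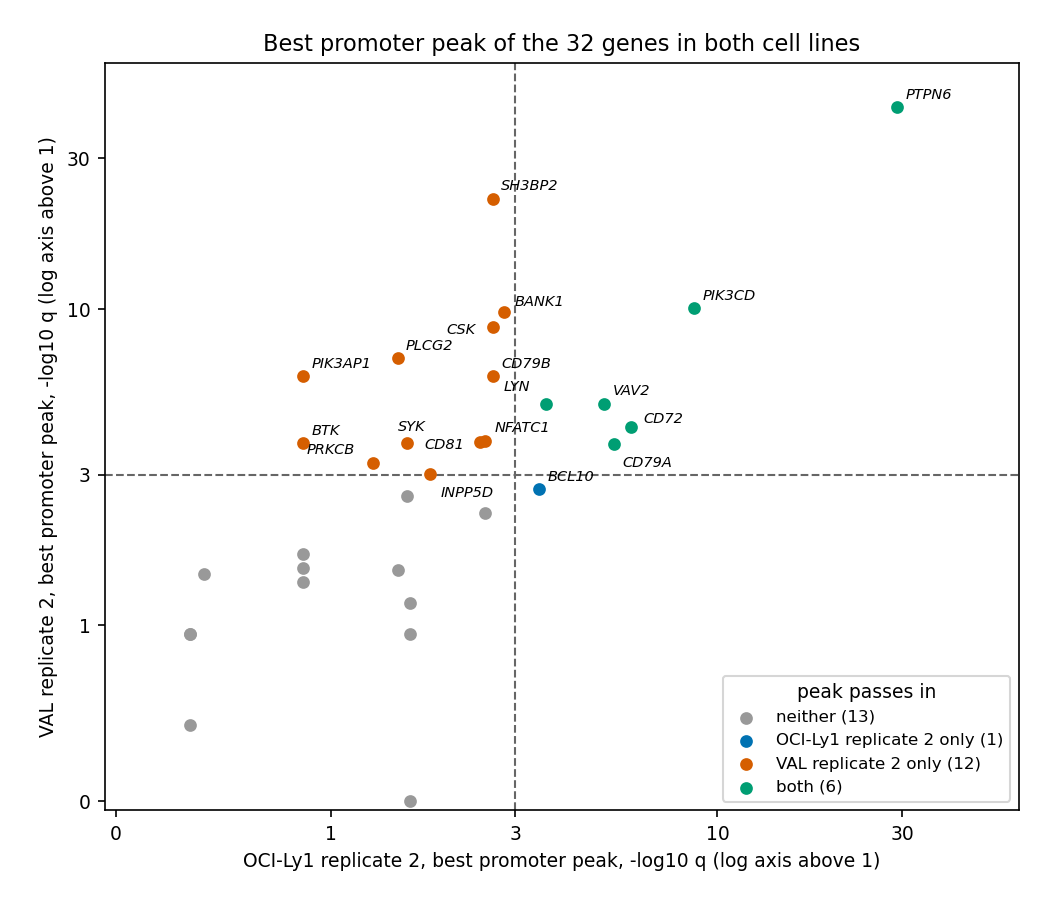
Best promoter peak of the 32 genes in OCI-Ly1 replicate 2 (horizontal) and VAL replicate 2 (vertical), as -log10 q on axes that are logarithmic above 1, with dashed lines at 3 and colours for where the peak passed. The 12 genes above the horizontal line and left of the vertical one reach from 3.003 (INPP5D) to 22.4 (SH3BP2) in VAL replicate 2, and 7 points lie between 2 and 3 in OCI-Ly1 replicate 2.

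Some genes without a call in OCI-Ly1 had a promoter peak just under the threshold. In OCI-Ly1, 7 of the 32 genes (21.9%) had a best -log10 q from 2 to 3, against 10.5% of other genes, and BANK1 (2.81), CD79B, CSK and SH3BP2 (2.62 each), MALT1 and NFATC1 (2.50 each) and CD81 (2.44) were these. For CD79B, CD81 and NFATC1 that peak was at another place than the best peak of VAL replicate 2, where OCI-Ly1 had 1.57, no listed peak and 1.36. At a threshold of 2, 14 genes of OCI-Ly1 would be bound (43.8%, against 29.5%), and 21 of VAL replicate 2 (65.6%, against 33.3%). At a threshold of 5, the counts were 5 (15.6%, against 11.9%) and 10 (31.2%, against 12.2%).

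A listed peak of OCI-Ly1 covered the VAL replicate 2 summit in 9 of the 12 genes called in VAL replicate 2 only (75%, against 74.1% of 1666 other genes of this class), with a median -log10 q of 1.57 among those 9. A listed peak of VAL replicate 1 covered it in 6 of the 12 (50%, against 29.4%). The covering OCI-Ly1 peak reached a -log10 q of 2 in 3 of the 12 genes, namely CSK, BANK1 and SH3BP2. At CSK it had 8 reads over an inferred background of 0.922 reads, and the VAL replicate 2 peak had 11 reads over 0.448. At BANK1 the OCI-Ly1 peak had 6 reads over 0.426 and the VAL replicate 2 peak 11 over 0.359. At SH3BP2 they had 5 reads over 0.283 and 22 over 0.628, so that the background was lower in OCI-Ly1 there. The part of background in the calls was not tested. Inferred reads at the best summits of bound genes were few, with a median of 8 in OCI-Ly1 and 8.5 in VAL replicate 2.

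**Figure D3:**
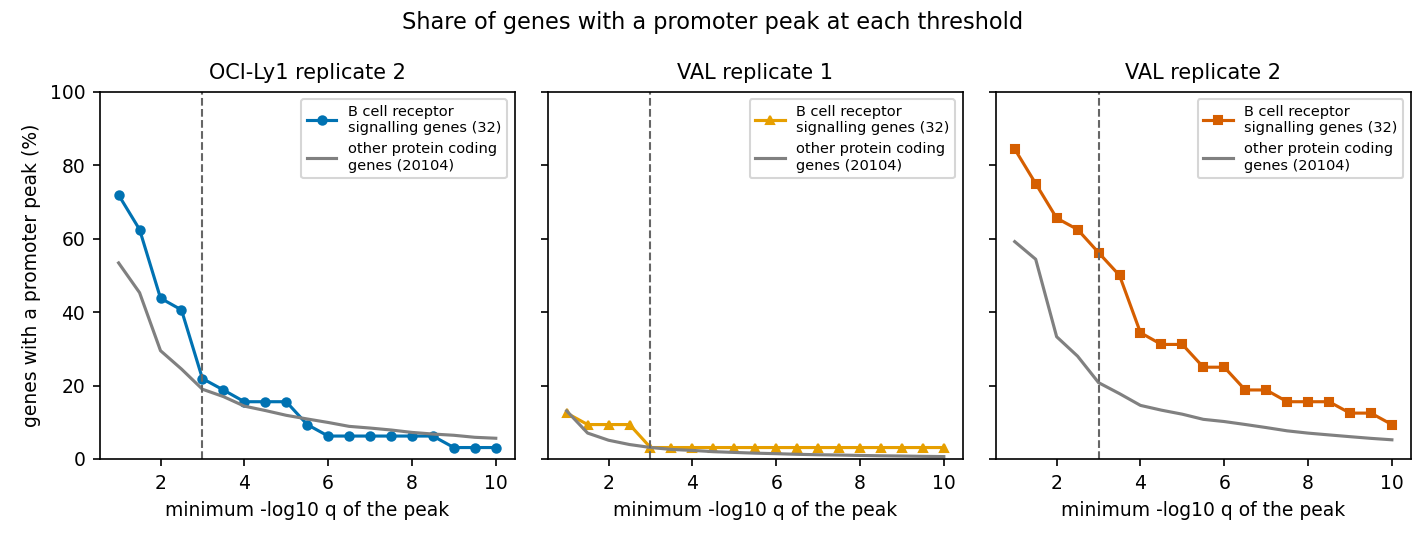
Share of genes with a promoter peak (vertical, in percent) at each minimum -log10 q from 1 to 10 (horizontal), for the 32 genes (coloured) and the 20104 other protein coding genes (grey), in 1 panel per library with the dashed line at 3. In VAL replicate 2 the coloured line is above the grey one at every threshold shown, in OCI-Ly1 replicate 2 it is above at 2 (43.8% against 29.5%) and near it at 3 (21.9% against 19.0%) and falls below from 5.5 on (6.25% against 9.95% at 6), and VAL replicate 1 stays at PTPN6 alone from 3 on.

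Because the strength of the libraries differed, each gene was also ranked by its best -log10 q among all protein coding genes of the same library. The median rank of the 32 genes was the 61.7th percentile of OCI-Ly1, the 60.3rd of VAL replicate 1 and the 82.0th of VAL replicate 2, where the medians of other genes were 49.6, 53.6 and 50. The top 10% of genes included 2 of the 32 genes in OCI-Ly1, 4 in VAL replicate 1 and 8 in VAL replicate 2. Of the 20104 other genes it included 2005, 2010 and 2006, so that in OCI-Ly1 the share of the signalling genes was the smaller one. Among bound genes alone, the median -log10 q of the signalling genes was 5.02 in VAL replicate 2 (other bound genes 5.72) and 5.39 in OCI-Ly1 (other bound genes 6.25), so their peaks had no higher a median than those of other genes.

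The 32 genes have more annotated TSS than other genes, with a median of 9.5 against 5, so more sequence (a median of 23596 bp against 12074 bp) could hold a peak. Among genes with 1 to 5 TSS, 50% of 8 signalling genes and 14.0% of other genes were bound in VAL replicate 2. The shares were 41.7% of 12 and 25.5% with 6 to 12 TSS, and 75% of 12 and 33.1% with 13 or more. In OCI-Ly1 the same shares were 50%, 8.33% and 16.7%, against 12.7%, 23.1% and 30.8%. These bins hold 8 to 12 signalling genes each, and the part of TSS number in the shares was not tested.

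The number of listed peaks within 500 kb of a gene, relative to all listed peaks of the library, was compared between VAL replicate 2 and OCI-Ly1 as a rough measure of how well each library covered the region. The median ratio was 1.02 for the 32 genes (range 0.504 to 1.36) and 1.04 for other genes. It was 1.07 for the 12 genes called in VAL replicate 2 only (lowest 0.963) and 1.0 for the remaining 20 (lowest 0.504). Within ratios of 0.8 to 1.2, 61.5% of 26 signalling genes were bound in VAL replicate 2 (other genes 21.1%) and 26.9% in OCI-Ly1 (other genes 19.3%). Below 0.8, 0 of 2 signalling genes were bound in VAL replicate 2 (other genes 20.3%), and from 1.2 on 2 of 4 were (other genes 19.6%). The measure counts listed peaks and not reads, and the part of coverage in the calls was not tested.

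The place of the peaks was read as the distance of the best summit from the nearest TSS of the gene. In VAL replicate 2 the best summit was within 500 bp of a TSS of the gene in 9 of 18 bound genes (50%), against 80.3% of 4183 other bound genes, and the median distance was 477 bp against 84 bp. In OCI-Ly1 it was within 500 bp in 5 of 7 (71.4%, against 82.1%), with medians of 342 bp and 71 bp. Of the 18 summits in VAL replicate 2, 8 were in introns, 7 upstream, 2 in UTRs and 1 in an exon. Of the 6 genes bound in both lines, 5 (83.3%) had overlapping peaks, CD72 being the exception, against 96.1% of 2534 other genes.

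**Figure D4:**
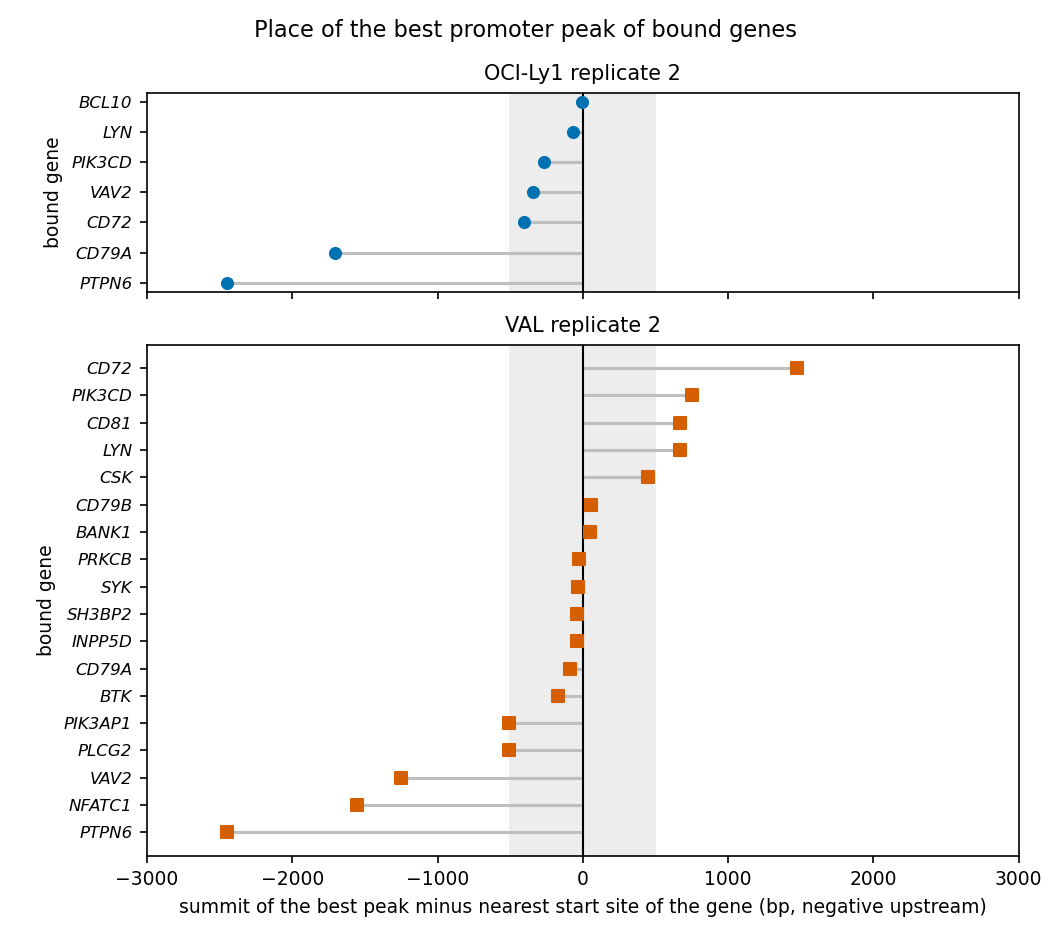
Distance of the summit of the best passing peak from the nearest TSS of the bound gene, in bp (negative upstream), for the 7 genes of OCI-Ly1 replicate 2 (top) and the 18 genes of VAL replicate 2 (bottom), with the 500 bp around the TSS shaded. In OCI-Ly1 replicate 2 the points lie at or upstream of the TSS, and in VAL replicate 2 they spread to both sides, from 2452 bp upstream (PTPN6) to 1478 bp inside the gene (CD72).

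Windows of 500 bp to each side of the most upstream protein coding TSS held the ETS motif in 4 of the 32 signalling genes (12.5%). Of 19762 other genes, bound or not, 28.3% held it. Each gene gave 1 window, which need not be at the TSS with the bound peak. The median GC content of these windows was 63.2% in the signalling genes and 59.6% in other genes. Among the bound signalling genes 3 of 19 windows had the motif (15.8%), and among other bound genes 52.0%. Among the 13 signalling genes bound in no library, 1 window had it (7.69%).

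Beyond the promoters, 11 of the 32 genes had a passing peak inside the gene and further than 3 kb from all its TSS in at least 1 library (34.4%, against 8.51% of 20078 other genes). By library these were 4 genes in OCI-Ly1 (SYK, LYN, VAV1 and NFATC1; 12.5%, against 4.19%), 2 in VAL replicate 1 (VAV1 and NFATC1; 6.25%, against 0.827%) and 10 in VAL replicate 2 (31.2%, against 5.67%). The signalling genes are long, with a median of 86146.5 bp against 27109.5 bp, and per length the peaks numbered 1.24, 0.62 and 6.51 per Mb, against 0.886, 0.153 and 1.21 per Mb in other genes. The 21 peaks of VAL replicate 2 were in introns, 7 of them in VAV2 and 6 in NFATC1, so that these 2 genes held most of them. LYN had an intronic peak in both lines (-log10 q 3.99 with 7 reads and 13.9 with 17 reads), and PLCG2 one of 10.4 in VAL replicate 2.

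For 13 genes no promoter was bound, and their nearest passing peak lay between 3334 bp and 442742 bp from a TSS. The nearest was that of BLK, an intronic peak of VAL replicate 2 (-log10 q 4.37, 7 reads), just beyond the window of 3 kb. The one nearest to DAPP1 was strong (15.0, in OCI-Ly1) but lay outside the gene at 29433 bp, and which gene it belongs to was not examined. Those of PTPRC and PPP3CA were the most remote, at 314299 bp and 442742 bp. VAV1 (2.56) and MALT1 (2.50) were the unbound genes closest to the threshold in the stronger libraries, and CBLB (2.89) in VAL replicate 1.

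The other genes of the pathway, 46 genes that include the Ras and Rac GTPases, PI3K and AKT, the NF-kB factors and calcineurin, were read in the same way. Of these, 17 were bound in OCI-Ly1 (37%, beside 19.0% of all protein coding genes outside the 32) and 21 in VAL replicate 2 (45.7%, beside 20.8%). RASGRP3 and PIK3R2 were the 2 bound in VAL replicate 1 (4.35%, beside 3.14%), and 12 were bound in both lines (26.1%, beside 12.6%). RAC1, PIK3R2, PPP3R1 and GSK3B were among those bound in both, with -log10 q values of 12 and 25.1, 23.3 and 13.7, 19.1 and 6.07, and 12.04 and 5.16 in OCI-Ly1 and VAL replicate 2. The ETS motif was at 9 of the 21 summits in VAL replicate 2 (42.9%, beside 44.1% for bound genes outside the 32). AGGAAGT was at 4 (19.0%, beside 7.58%), among them NFKB1. In OCI-Ly1 the ETS motif was at 5 of 17 summits (29.4%, beside 50.5%) and AGGAAGT at 2 (11.8%, beside 7.02%).

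For comparison, 12 genes of T cell receptor signalling were examined too. None was bound in OCI-Ly1 (beside 19.0% of genes outside the 32) or in VAL replicate 1 (beside 3.14%), and 1 (8.33%, beside 20.8%) was bound in VAL replicate 2. ZAP70, which does in T cells what SYK does in B cells, had 1.61, 0.255 and 0.952, where SYK had 1.57, 0 and 3.76. The peaks of a ChIP do not measure expression and the list is short, so the labelled cell type could not be tested with these data.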

How the data were processed

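The 4 FLI1 libraries of OCI-Ly1 and VAL were read as the authors deposited them, 1 peak list of 10 columns each; the input DNA was not analysed here. According to the study's methods, the authors used bowtie2 to align reads to GRCh37 and SAMtools to drop duplicates and reads without a single position, while the submitters' processing notes list BWA and CASAVA 1.4. The methods name HOMER with an FDR of 0.001 for the peaks, but the lists have the form of a MACS2 output and hold weaker peaks too, and the settings and control behind these lists are not given in the sources used here. In the deposited lists the fold enrichment is a ratio of the summit pileup to the local background, and the -log10 p and -log10 q are values of the authors' peak caller; how q was adjusted is not given in the sources used here. The score, made by the authors' peak caller from the p-value, was not used. The p-values of all listed peaks were 0.05 or lower.

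The members and gene lists were chosen with earlier results of these data known. TSS came from GENCODE release 44 on GRCh37; the best peak of each gene within 3000 bp was taken per library, and all 32 genes are named with their values. Samples were grouped by line and replicate as in the labels. Percentiles were computed among protein coding genes. Reads at a summit were inferred by solving the caller's formulas, in which the fold is (reads + 1) / (background + 1) and the p-value is Poisson, within 0.001 on the -log10 p, and a solution was found for 26 of 26 passing promoter peaks of the 32 genes. These counts are the only measure of depth here, since read totals were not used. Motifs were read from GRCh37 on both strands, with distinct summits counted once. Gene body peaks lie over 3000 bp from all TSS of the gene, and 26 genes with several loci were left out. A few genes of the comparison lists entered the counts but are not reported here by name. Scripts were tested on simulated data. Alternatives covered the threshold, fold, window, peak position, TSS set, closest gene, list size, libraries and motif. Software was samtools 1.23.1, pysam 0.24.0, matplotlib 3.10.9, scipy 1.17.1, pandas 2.3.3 and numpy 2.4.6, under python 3.11.15.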

Additional observations from a re-analysis of the deposited data

How the results depend on the processing

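Of 63 alternative counts, 40 stayed within 1.5 times the reported one. At a -log10 q of at least 5, 10 genes were bound in VAL replicate 2 (31.2%, against 12.2% of other genes). In both lines there were 3 (9.38%, against 7.59%), and in at least 1 library 12 (37.5%, against 16.6%). A gene body peak was left in 5 (15.6%, against 2.78%). At least 2 gave 14 in OCI-Ly1 (43.8%, against 29.5%), 3 in VAL replicate 1 (9.38%, against 5.11%) and 14 in both lines (43.8%, against 20.0%). In VAL replicate 1, PTPN6 was lost (count 0, against 2.83% of other genes) with a window of 1 kb. It was also lost when a peak counted only for the closest TSS (2.22% of other genes). The top 5000 peaks of that library gave 4 genes (12.5%, against 7.83%). Leaving out 1 library gave 1 to 6 genes bound in both lines and 7 to 19 in at least 1 library; the lowest values, 1 and 7, are those without VAL replicate 2, and requiring both VAL replicates gave the same 1 and 7. Genes bound in at least 1 library then were 21.9%, against 19.2% to 19.3% of other genes, so the higher share rests on VAL replicate 2. For the motif, CCGGAAGT gave 0 summits in each library, GGAA gave 7 in OCI-Ly1 and 17 in VAL replicate 2, a search of 100 bp gave 2 in OCI-Ly1, and AGGAAGT, chosen after seeing the data, gave 3 for OCI-Ly1, 0 for VAL replicate 1 and 8 for VAL replicate 2. The cause of these changes was not tested where the setting does not itself remove peaks or libraries. No paired analysis was possible because the replicate numbers link no groups in a test and no test was made. Few reads per summit limit every call.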
